A study of Mus musculus with 26 samples.

Results

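Imprinted genes are expressed mainly from the copy inherited from a single parent. The set described here holds 46 such mouse genes, listed by name by cluster and by the parental copy that is usually active. Of these, 44 had at least 1 probe set carrying their symbol alone, and 43 had the 4 or more probe sets needed for a gene value and a test, out of 18341 genes tested in all. Ndn had only 3 probe sets and is given by values without a test, and no probe set was named for Zim1 or Zrsr1. Imprinting is set in the germ line by DNA methylation of short control regions, kept on the same parental copy through early development by ZFP57 and its partners, and read in cis by insulators or long noncoding RNAs. Many of the genes act on fetal and placental growth, most of them are clustered, and cultured embryonic stem cells are known to lose or gain imprints. The array does not separate parental copies and the labels give no cross between strains, so all values below are totals over both copies.

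RNA of 26 mouse samples was hybridised to an exon array, which carries several probe sets per gene. All samples are labelled as mouse embryonic stem cell and embryoid body material and, in the tissue field, as embryonic body cells. The strain label alone divides them, with 14 arrays labelled 129S2/SvPas (titles ES1 to ES14) and 12 labelled C57BL/6 (ES15 to ES26). The labels used here name no treatment, culture time, age or parental cross, and do not say whether 2 samples ever shared a culture. The p-values therefore reflect spread between arrays of the same label alone, and part of that may be technical. Each label also pools arrays with different markers, described below, so this is not spread between like samples. For H19 the SD was 2.61 over all arrays labelled 129S2/SvPas and 0.36 over ES1 to ES12. The title runs ES1 to ES12, ES13 and ES14, ES15 to ES20, ES21 to ES24, and ES25 and ES26 belong to the way the gene set was defined and to no label, and they are described without a test. Values are log2 RMA values per gene, and a negative difference means a lower mean in arrays labelled 129S2/SvPas than in those labelled C57BL/6.

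The samples did not all carry the markers of their labelled tissue. The mean of 9 neutrophil and myeloid markers was 11.02 to 12.34 in ES1 to ES12 and 5.31 to 6.58 in the other 14 arrays, while that of 10 pluripotency markers was 5.25 to 5.83 in ES1 to ES12 and 10.98 to 11.41 in ES21 to ES24. Embryonic red cell markers were 9.29 to 11.53 in ES15 to ES20, a range that ES14 (9.42) also reached, and 7.05 or lower in all other arrays. Trophoblast markers (8 tested) were 7.74 to 7.85 in ES13 and ES14 and 7.26 to 7.68 in ES15 to ES20, against 5.43 to 5.90 in ES1 to ES12 and 6.38 to 6.82 in ES21 to ES26. Extraembryonic endoderm markers were 6.89 to 8.02 in ES15 to ES20 and 5.71 to 6.76 elsewhere, and neural markers 7.47 to 7.87 in ES21 to ES26 and 5.48 to 7.18 elsewhere. Primitive streak markers were highest in ES13 and ES14 (7.73 to 9.27), and fibroblast markers ranged from 6.22 to 7.05 in ES1 to ES12 and from 8.07 to 10.47 elsewhere. Of the 10 fibroblast markers, Thy1 went against this mean, with 8.33 to 11.89 in ES1 to ES12 and 4.98 to 7.32 elsewhere. The leukocyte antigen gene Ptprc was 10.62 to 11.42 in ES1 to ES12 and 4.22 to 4.42 in ES21 to ES24, and the stem cell factor gene Pou5f1 4.58 to 6.12 and 11.23 to 11.70. ES13 and ES14, labelled 129S2/SvPas, thus stand apart from the other arrays of that label, and results on strain labels are given with and without them. Since titles and strain labels run in parallel, a batch that the labels leave out cannot be told apart from strain. Nor, in bulk RNA, can fewer cells of a type be told apart from less RNA per cell.

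RefSeq promoter windows (assembly GRCm38.p6, 250 bases before to 50 after a start) were available for 41 of the listed genes, 63 windows in all, and those below belong to genes with large differences between the runs, chosen with their values known. In capitals is TGCCGC, the core of the motif bound by ZFP57, or its reverse complement GCGGCA. All are printed 5′ to 3′ on the gene's strand, from chr1:63200108-63200407 (plus strand) for Zdbf2, chr6:30737800-30738099 (plus) for Mest, chr10:13090582-13090881 (plus) for Plagl1, chr12:109540746-109541045 (plus) for Meg3, chr2:157559828-157560127 (plus) for Nnat and chr7:6730370-6730669 (minus) for Peg3.
Zdbf2: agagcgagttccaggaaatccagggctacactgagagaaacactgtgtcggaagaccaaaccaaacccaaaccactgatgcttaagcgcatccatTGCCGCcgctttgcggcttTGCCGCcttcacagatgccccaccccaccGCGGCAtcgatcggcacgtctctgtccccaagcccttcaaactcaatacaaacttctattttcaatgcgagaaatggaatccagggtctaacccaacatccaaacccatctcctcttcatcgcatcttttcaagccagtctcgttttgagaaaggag
Mest: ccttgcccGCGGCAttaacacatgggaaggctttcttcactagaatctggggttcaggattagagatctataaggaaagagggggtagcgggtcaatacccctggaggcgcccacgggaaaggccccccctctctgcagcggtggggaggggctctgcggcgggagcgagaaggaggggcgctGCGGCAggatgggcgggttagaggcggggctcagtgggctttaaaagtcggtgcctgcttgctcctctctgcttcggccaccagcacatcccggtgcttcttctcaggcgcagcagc
Plagl1: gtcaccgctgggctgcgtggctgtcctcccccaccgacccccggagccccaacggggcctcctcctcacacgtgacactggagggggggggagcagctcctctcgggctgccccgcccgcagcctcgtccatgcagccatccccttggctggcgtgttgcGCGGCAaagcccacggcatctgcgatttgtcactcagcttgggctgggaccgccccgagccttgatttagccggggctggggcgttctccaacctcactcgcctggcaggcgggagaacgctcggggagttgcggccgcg
Meg3: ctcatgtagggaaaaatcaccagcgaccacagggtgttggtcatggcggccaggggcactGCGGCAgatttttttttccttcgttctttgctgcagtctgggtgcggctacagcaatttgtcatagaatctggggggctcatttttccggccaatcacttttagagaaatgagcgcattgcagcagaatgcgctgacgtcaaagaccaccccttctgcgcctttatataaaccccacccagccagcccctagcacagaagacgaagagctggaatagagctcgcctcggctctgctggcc
Nnat: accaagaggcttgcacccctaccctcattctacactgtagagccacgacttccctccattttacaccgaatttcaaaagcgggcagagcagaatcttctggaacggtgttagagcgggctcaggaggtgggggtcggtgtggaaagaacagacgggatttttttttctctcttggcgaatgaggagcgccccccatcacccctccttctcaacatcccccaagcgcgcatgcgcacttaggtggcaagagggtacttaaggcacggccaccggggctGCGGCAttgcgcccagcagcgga
Peg3: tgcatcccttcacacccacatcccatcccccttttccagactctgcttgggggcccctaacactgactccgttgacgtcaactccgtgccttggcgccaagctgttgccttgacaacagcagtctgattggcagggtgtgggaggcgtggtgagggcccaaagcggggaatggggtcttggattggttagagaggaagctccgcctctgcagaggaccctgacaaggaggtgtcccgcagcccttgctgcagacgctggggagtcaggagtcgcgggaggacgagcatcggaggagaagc

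The printed Zdbf2 window held 3 matches, the Mest window 2, those of Plagl1, Meg3 and Nnat 1 each, and that of Peg3 0. Zdbf2, Mest and Meg3 each also had a window with 0 matches, which is not printed. Slc38a4, Rian, Igf2r, Airn and Phlda2, which also had large differences, held 0 matches in all their windows. Over the 63 windows of the imprinted genes 15 (23.8%) held at least 1 match, against 11.6% of the 32851 windows in the table, and 5 (7.94%) held 2 or more, against 1.53%. Those 5 belong to 4 genes, Calcr, Mest, Nap1l5 and Zdbf2, since 2 of them are windows of the same Mest promoter 3 bases apart. The windows were also richer in CpG, with a median of 15 against 7 over the table. The motif GCCATNTT, bound by YY1 and searched on both strands, was in 3 of the 63 windows (4.76%, against 6.05% of all windows). The windows of Peg3 and Usp29 (chr7:6730333-6730632) overlap on opposite strands, so these neighbours start from shared sequence. A match is a description of the letters and says nothing of binding in these samples. H19, Cdkn1c, Impact, Peg10 and Sgce had no entry in the promoter table.

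Several of the genes are hosts of microRNAs, which were not measured as mature forms on this array. By RefSeq positions, Mirg spans 10 microRNA hairpins, Rian 3 and Calcr 2, and microRNAs also lie in H19, Igf2, Mest, Meg3 and Usp29. The mature forms below, with the seed (bases 2 to 8) in capitals, were chosen as those of the hosts with large differences and as a pair from Mirg that shares a seed.
miR-675-5p (in H19): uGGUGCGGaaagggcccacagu
miR-483-3p (in Igf2): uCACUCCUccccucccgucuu
miR-335-5p (in Mest): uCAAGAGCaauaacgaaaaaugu
miR-370-3p (in Rian): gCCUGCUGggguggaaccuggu
miR-453 (in Mirg): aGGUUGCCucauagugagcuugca
miR-496a-5p (in Mirg): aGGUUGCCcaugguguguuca

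The first comparison was between the strain labels. Of the 43 imprinted genes tested, 29 had lower values in arrays with the 129S2/SvPas label, 3 were higher and 11 did not pass (limma, Benjamini-Hochberg adjusted p under 0.05). Among all 18341 genes 22.1% were lower and 21.1% higher. The list was chosen with earlier results of these data known, so its distance from these shares is not independent of that choice. Of 31 other genes reported as imprinted, described at the end, 8 were lower and 8 higher. The median difference over the imprinted genes was -0.80, against -0.0015 over all genes. Differences of at least 1 log2 unit were seen in 21 of the lower and 2 of the higher genes. Without ES13 and ES14 the counts were 30 lower and 4 higher, with 25.2% of all genes in each direction. The added calls were Ube3a and Blcap, no call was lost, and the largest differences became -6.87 for Slc38a4, -6.66 for Rian, -5.84 for Peg3, -5.68 for Mest, -5.35 for Meg3 and -5.36 for H19. Without ES1 to ES12, leaving ES13 and ES14 as the only arrays labelled 129S2/SvPas, 0 of the 43 passed in either direction. In that fit 6 imprinted genes had an unadjusted p under 0.05 (9.89% of all genes did), their lowest adjusted p was 0.164, and 1 of all 18341 genes passed, as higher (0.00545%). With 2 arrays against 12, this limma fit called 1 of all 18341 genes, so the lost calls say little about these genes. Of the genes lower before, some kept their sign there, as Plagl1 (-1.50), Osbpl5 (-0.83), Nnat (-0.79) and Dlk1 (-0.78), and others turned it, as given below. The high myeloid markers of ES1 to ES12 move with the strain comparison, and their part in it was not tested.

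By the copy that is usually active, 18 of 20 paternally expressed genes were lower and 0 higher, with a median difference of -2.03. Of 18 maternally expressed genes 10 were lower and 2 higher, with a median of -0.66. Of 5 genes with transcripts from both copies, which differ by promoter or tissue, 1 was lower and 1 higher. By cluster, the genes lower were 4 of 5 at Dlk1-Meg3, 2 of 2 at H19-Igf2, 4 of 7 at Kcnq1, 2 of 3 at Igf2r, 2 of 2 at Peg3, 1 of 2 at Mest, 4 of 5 at Peg10, 3 of 5 at Snrpn, and 7 of 12 outside these clusters. Genes of a cluster usually active from opposite copies thus differed in 1 direction in several places, as H19 and Igf2, Igf2r and Airn, and Dlk1 and Meg3. In other places they differed in opposite directions, as Slc22a3 and Airn, and Copg2 and Mest. Among all genes 22.1% were lower and 21.1% higher, and most of these groups hold few genes. These are totals, and the copies themselves were not read apart. Whether the usually active copy bears on these counts was not tested.

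**Figure D1:**
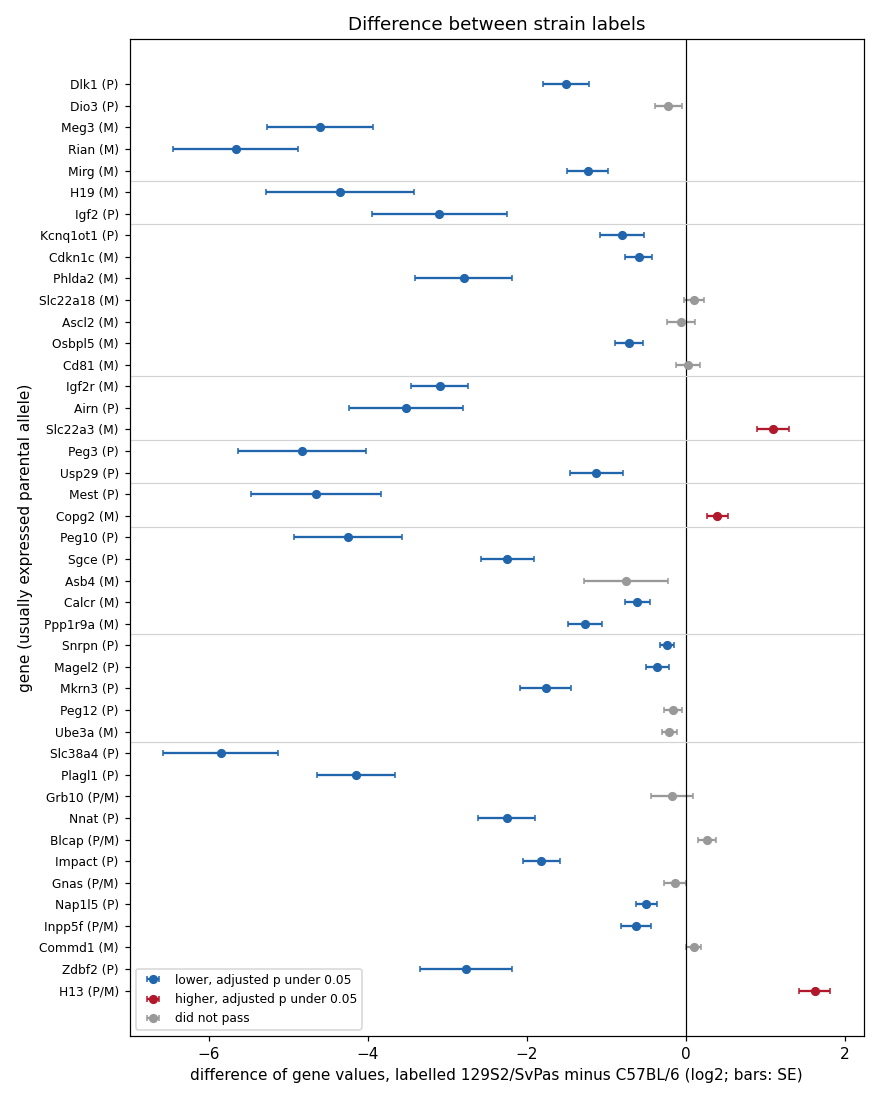
Difference of gene values between strain labels (129S2/SvPas minus C57BL/6, log2, horizontal axis) for the 43 imprinted genes tested, grouped by cluster, with bars giving the SE and colour giving the result of the test. The 29 genes that were lower lie left of 0, reaching -5.85 for Slc38a4, and Slc22a3, Copg2 and H13 lie to the right.

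**Figure D2:**
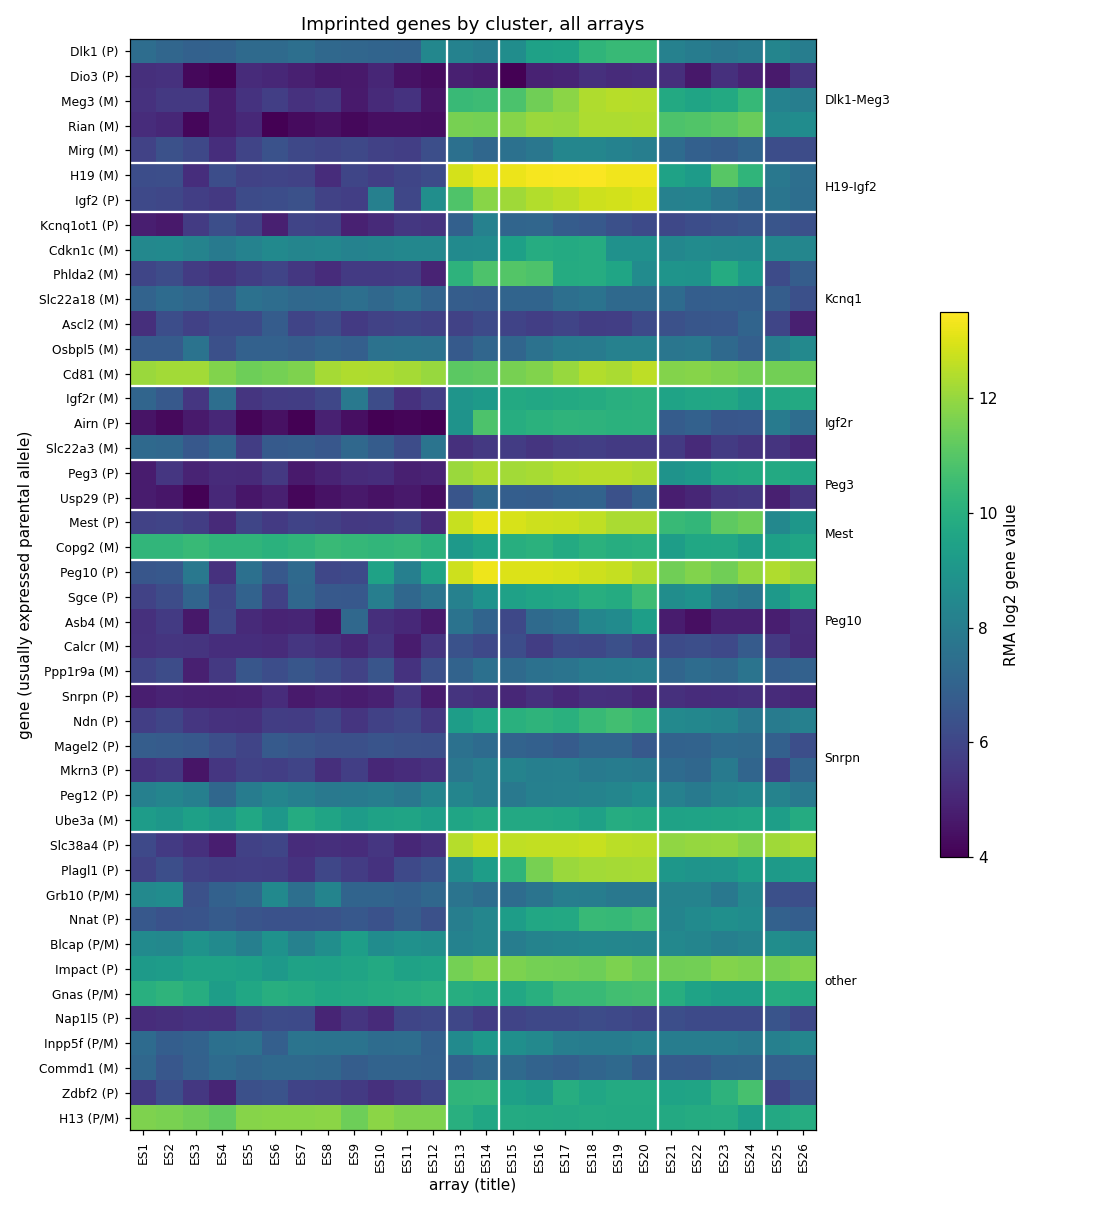
Log2 gene value (colour) of the 44 imprinted genes with a probe set (rows, by cluster, with the usually active copy) in each of the 26 arrays (columns, white lines between the title runs). Meg3, Rian, H19, Peg3, Mest and Slc38a4 are lowest in ES1 to ES12 and highest in ES13 to ES20. Colours compare arrays within a row, since levels of different genes rest on different probes.

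The title runs place these differences in more detail. A gene was counted when the values of 2 runs did not overlap and their medians were at least 1 log2 unit apart. By that rule 13 of 43 imprinted genes were lower in ES1 to ES12 than in ES13 to ES26 (5.44% of all genes), and 1, H13, was higher (6.37% of all genes). Against ES21 to ES24, the arrays with the highest pluripotency marker scores, 16 were higher in ES15 to ES20 (background 5.11%) and 0 were lower (5.16%). Against the same ES21 to ES24, 10 were higher in ES13 and ES14 (2.08%) and 0 lower (5.00%), and in ES25 and ES26 9 were lower (4.29%) and 2 higher (2.71%). The last 3 of these comparisons share ES21 to ES24. Trophoblast and embryonic red cell markers were higher in every array of ES13 to ES20 than in ES21 to ES24, and their part in these counts was not tested. Among the arrays labelled C57BL/6 alone, 16 of the 43 genes had an SD above that of 90% of all genes, led by Igf2, H19 and Asb4. The accounts of the clusters below give these values gene by gene.

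**Figure D3:**
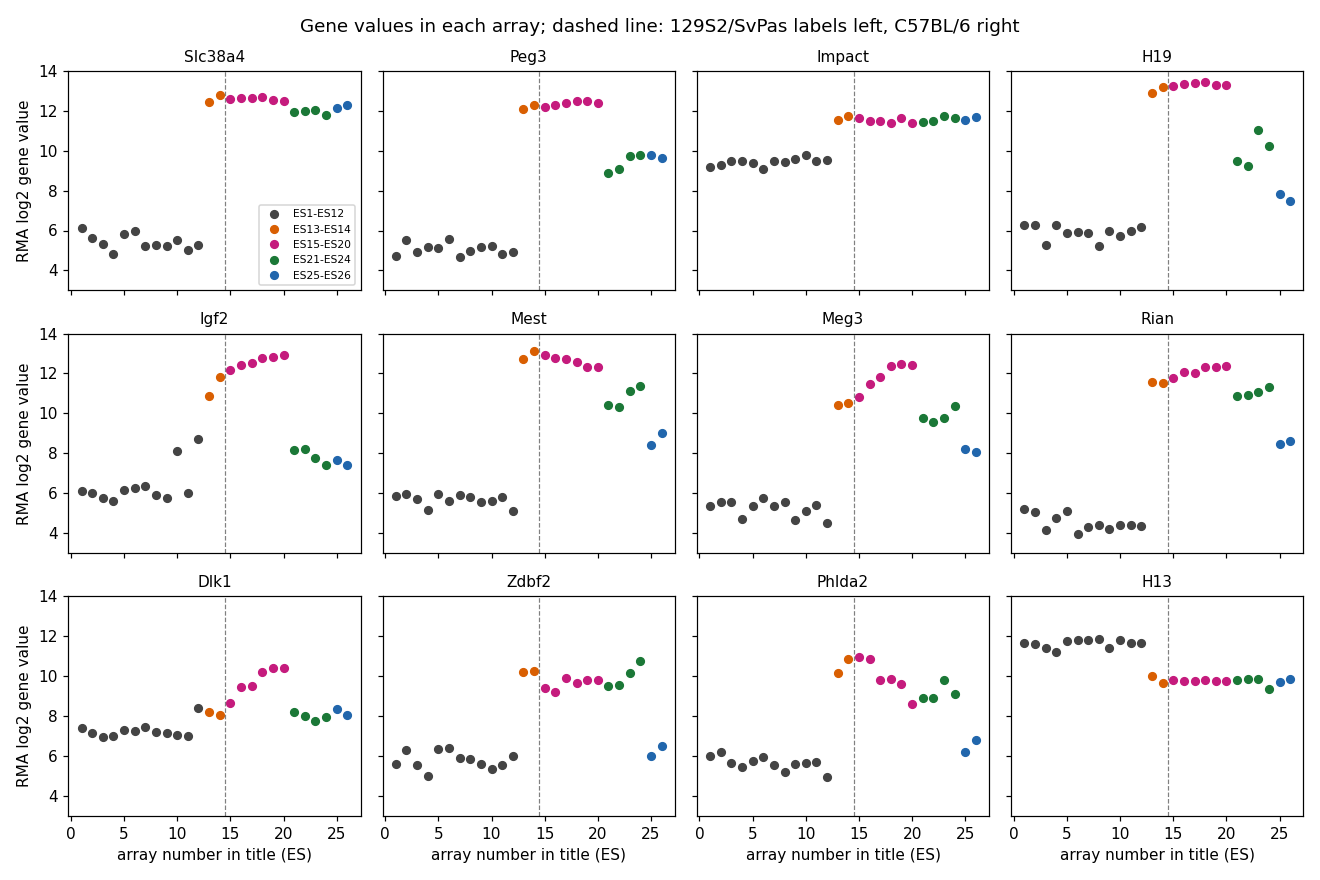
Log2 gene value (vertical axis) of 12 imprinted genes in each array (horizontal axis, the number in the title), with 1 point per array, colours for the title runs and a dashed line between the strain labels. Slc38a4 and Impact are low in ES1 to ES12 and level from ES13 on, whereas H19 and Mest step down from ES13 to ES20 through ES21 to ES24 to ES25 and ES26, and Zdbf2 in ES25 and ES26 lies at the level of ES1 to ES12.

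At the H19-Igf2 domain an insulator between the genes directs shared enhancers to maternal H19, a growth-restraining noncoding RNA, or to paternal Igf2, a fetal growth factor. H19 was 5.22 to 6.29 (median 5.96) in ES1 to ES12, 12.89 and 13.17 in ES13 and ES14, and 13.23 to 13.43 (median 13.33) in ES15 to ES20. It was 9.48, 9.21, 11.05 and 10.22 in ES21 to ES24 and 7.82 and 7.45 in ES25 and ES26. The 5 runs did not overlap, and rose from ES1 to ES12 through ES25 and ES26, ES21 to ES24, and ES13 and ES14 to ES15 to ES20. The gene averaged 6.92 ± 2.61 (SD, n = 14) in the arrays labelled 129S2/SvPas and 11.27 ± 2.35 (SD, n = 12) in those labelled C57BL/6, a difference of -4.35 ± 0.93 (SE, adjusted p = 0.00041). Without ES1 to ES12 the sign turned, to 1.76.

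Igf2 was 5.59 to 8.71 (median 6.06) in ES1 to ES12, with ES10 at 8.13 and ES12 at 8.71 and the other 10 arrays at or below 6.34. It was 10.87 and 11.82 in ES13 and ES14 and 12.16 to 12.95 (median 12.67) in ES15 to ES20. In ES21 to ES24 it was 8.16, 8.22, 7.78 and 7.43, and in ES25 and ES26 7.68 and 7.43. Igf2 was high only in ES13 to ES20, and ES10 and ES12 reached or passed the levels of ES21 to ES26. The difference between strain labels was -3.10 ± 0.84 (SE, adjusted p = 0.00401). It was 1.15 without ES1 to ES12. Of the 23 Igf2 probe sets 16 were higher by over 1 in ES13 to ES26, up to 6.88. Some bright ones differed by only 0.39, 0.01 and 0.30.

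Igf2r and Airn lie on opposite strands at a shared locus. Igf2r, the receptor that clears IGF2, is maternally expressed, and Airn is the paternal noncoding RNA that silences it in cis. Igf2r was 5.36 to 7.84 (median 5.89) in ES1 to ES12, where ES9 (7.84), ES4 (7.43) and ES1 (7.11) were highest. It was 8.96 and 9.17 in ES13 and ES14, 9.68 to 10.05 (median 9.81) in ES15 to ES20, 9.53, 9.63, 9.71 and 9.32 in ES21 to ES24, and 9.70 and 9.76 in ES25 and ES26. All arrays from ES13 on lay between 8.96 and 10.05, above ES1 to ES12. The difference was -3.10 ± 0.36 (SE, adjusted p = 2.57e-07), and 51 of its 52 probe sets were higher by over 1 in ES13 to ES26.

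Airn was 3.26 to 5.07 (median 4.32) in ES1 to ES12, 8.87 and 10.86 in ES13 and ES14, and 9.92 to 10.20 (median 10.10) in ES15 to ES20. It was 6.75, 6.94, 6.53 and 6.57 in ES21 to ES24 and 7.97 and 7.39 in ES25 and ES26. Unlike Igf2r, which stayed between 9.32 and 10.05 in the arrays labelled C57BL/6, Airn had a lower level in ES21 to ES24 than in the runs on both sides. Its difference was -3.52 ± 0.72 (SE, adjusted p = 0.000262) and 1.31 without ES1 to ES12. Whether its 5 probe sets read only the Airn strand was not tested. Slc22a3, an organic cation transporter gene of the same cluster imprinted in the placenta, went the other way. It was 5.71 to 7.67 in ES1 to ES12 and 5.09 to 5.77 in ES13 to ES26, a difference of 1.10 ± 0.20 (SE, adjusted p = 7.32e-05).

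The Dlk1-Meg3 cluster carries the paternal genes Dlk1, for a Notch-like membrane protein, and Dio3, for a thyroid hormone deiodinase. Its maternal noncoding RNAs Meg3, Rian and Mirg include small nucleolar and micro RNA hosts, and their silencing is a known defect of mouse stem cell lines. Rian was 3.95 to 5.19 (median 4.40) in ES1 to ES12, 11.56 and 11.53 in ES13 and ES14, and 11.79 to 12.36 (median 12.20) in ES15 to ES20. It was 10.86, 10.91, 11.08 and 11.32 in ES21 to ES24 and 8.46 and 8.63 in ES25 and ES26. These last arrays lay between ES1 to ES12 and all others, overlapping neither. The difference was -5.66 ± 0.78 (SE, adjusted p = 2.13e-06), and 0.36 without ES1 to ES12.

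Meg3 was 4.49 to 5.75 (median 5.38) in ES1 to ES12 and 10.44 and 10.53 in ES13 and ES14. It was 10.82 to 12.47 (median 12.11) in ES15 to ES20, 9.77, 9.56, 9.76 and 10.35 in ES21 to ES24, and 8.21 and 8.07 in ES25 and ES26. As for Rian, ES25 and ES26 were above ES1 to ES12 and below every other later array. The difference was -4.60 ± 0.66 (SE, adjusted p = 3.46e-06). Mirg, a host of the microRNAs shown above, spanned 5.25 to 6.38 in ES1 to ES12. It was 7.56 to 8.38 in ES15 to ES20 and 6.26 and 6.22 in ES25 and ES26. The difference was -1.23 ± 0.25 (SE, adjusted p = 0.000276). Of its 7 probe sets 3 were higher by over 1 in ES13 to ES26, and the brightest differed by 0.47.

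Dlk1, the protein-coding paternal gene, was 6.94 to 8.41 (median 7.17) in ES1 to ES12, with only ES12 (8.41) above 7.47. It was 8.22 and 8.03 in ES13 and ES14 and 8.65, 9.44, 9.50, 10.20, 10.41 and 10.39 in ES15 to ES20. In ES21 to ES24 it was 8.19, 8.00, 7.75 and 7.95, and in ES25 and ES26 8.33 and 8.03. ES15 to ES20 thus stood above all other arrays, and ES25 and ES26 overlapped ES21 to ES24, where Meg3 and Rian did not. Dlk1 differed by -1.50 ± 0.29 (SE, adjusted p = 0.000152). Of its 18 probe sets 8 were higher by over 1 in ES13 to ES26, up to 3.51, against 24 of 25 for Meg3 and 25 of 25 for Rian. The brightest of Dlk1 differed by only 0.49, 0.30 and 0.05, which limits the contrast with Meg3 and Rian. Dio3 lay between 3.77 and 5.44 in all arrays and did not pass (difference -0.22 ± 0.16, adjusted p = 0.305).

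The Peg3 cluster holds Peg3, a zinc finger protein gene, and Usp29, a ubiquitin protease gene, both paternal. Peg3 was 4.69 to 5.59 (median 5.04) in ES1 to ES12, 12.09 and 12.30 in ES13 and ES14, and 12.18 to 12.49 (median 12.38) in ES15 to ES20. It was 8.90, 9.07, 9.71 and 9.76 in ES21 to ES24 and 9.79 and 9.63 in ES25 and ES26. ES21 to ES26 lay between ES1 to ES12 and ES13 to ES20 and overlapped neither. Peg3 differed by -4.83 ± 0.81 (SE, adjusted p = 2.55e-05), and all of its 27 probe sets were higher by over 1 in ES13 to ES26. Usp29 spanned 4.07 to 5.09 in ES1 to ES12, 6.51 and 7.23 in ES13 and ES14, 6.37 to 7.02 in ES15 to ES20, 4.79 to 5.57 in ES21 to ES24 and 4.83 and 5.44 in ES25 and ES26. Here ES1 to ES12 overlapped ES21 to ES26, and the difference was -1.13 ± 0.33 (SE, adjusted p = 0.00758).

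Mest, a paternal gene for a hydrolase-like protein of the endoplasmic reticulum, was 5.12 to 5.98 (median 5.77) in ES1 to ES12, 12.72 and 13.11 in ES13 and ES14, and 12.30 to 12.92 (median 12.67) in ES15 to ES20. It was 10.41, 10.30, 11.13 and 11.38 in ES21 to ES24 and 8.44 and 9.03 in ES25 and ES26. No value of ES1 to ES12 reached those of any later run, and ES25 and ES26 were the lowest of the later arrays. The difference was -4.65 ± 0.82 (SE, adjusted p = 4.75e-05), and 1.55 without ES1 to ES12. Copg2, its maternal neighbour on the opposite strand, which codes for a coatomer subunit, was 10.07 to 10.45 in ES1 to ES12 and 9.11 to 10.06 in ES13 to ES26. Its runs did not overlap but lay close, it was higher by 0.40 ± 0.13 (SE, adjusted p = 0.0163), and it lost the call under quantile normalization (adjusted p = 0.0975).

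At the Peg10 cluster, Peg10, a retrotransposon-derived gene needed for the placenta, and Sgce, for epsilon-sarcoglycan, are paternal. Peg10 was 5.34 to 9.53 (median 6.94) in ES1 to ES12, with 9.49 in ES10 and 9.53 in ES12, the arrays that also had the highest Igf2 values of that run. It was 12.79 and 13.26 in ES13 and ES14, 12.37 to 13.01 (median 12.84) in ES15 to ES20, 11.46, 11.70, 11.46 and 11.97 in ES21 to ES24, and 12.36 and 12.08 in ES25 and ES26. The later arrays all lay above ES1 to ES12. The difference was -4.25 ± 0.68 (SE, adjusted p = 1.41e-05), and over ES1 to ES12 its SD of 1.32 exceeded that of 99.8% of genes.

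Sgce was 5.83 to 8.07 in ES1 to ES12, again highest in ES10 (8.07) and ES12 (7.66), and 7.73 to 10.50 in ES13 to ES26, which overlap. It differed by -2.24 ± 0.33 (SE, adjusted p = 4.54e-06). The maternal Asb4, for an ankyrin repeat protein of ubiquitin ligases, was 7.60 and 7.07 in ES13 and ES14 and 6.06, 7.28, 7.48, 8.36, 8.60 and 9.32 in ES15 to ES20. It was 4.39 to 4.88 in ES21 to ES24 and 4.49 to 7.20 in ES1 to ES12, with ES9 at 7.20 and all other arrays of that run at or below 6.01. Asb4 did not pass (difference -0.75 ± 0.53, adjusted p = 0.265). Calcr, the calcitonin receptor gene, and Ppp1r9a, for the actin-binding neurabin, differed by -0.61 ± 0.16 and -1.26 ± 0.22 (adjusted p = 0.00276 and 3.1e-05).

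In the Kcnq1 cluster the paternal noncoding RNA Kcnq1ot1 silences maternally expressed growth genes. Kcnq1ot1 was 4.65 to 6.28 in ES1 to ES12, 6.90 and 8.18 in ES13 and ES14, 6.15 to 7.13 in ES15 to ES20, 6.04 to 6.51 in ES21 to ES24, and 6.51 and 6.33 in ES25 and ES26. ES1 to ES12 overlapped ES15 to ES20 and ES21 to ES24, and ES14 was highest. The difference was -0.80 ± 0.28 (SE, adjusted p = 0.0205), and the call was lost after median centring of each array (adjusted p = 0.0579) and under quantile normalization (adjusted p = 0.0757). Whether its probe sets read only the Kcnq1ot1 strand was not tested.

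Phlda2, a maternal gene that limits placental growth, was 4.96 to 6.20 (median 5.65) in ES1 to ES12, 10.15 and 10.84 in ES13 and ES14, and 8.58 to 10.95 (median 9.85) in ES15 to ES20. It was 8.91, 8.90, 9.83 and 9.12 in ES21 to ES24 and 6.18 and 6.80 in ES25 and ES26. ES25 lay inside the range of ES1 to ES12 and ES26 above it, while the other later arrays were at 8.58 or higher. The difference was -2.79 ± 0.61 (SE, adjusted p = 0.000538) and 1.38 without ES1 to ES12. Cdkn1c, a cyclin-dependent kinase inhibitor gene, was 7.91 to 8.51 in ES1 to ES12 and 8.79 to 9.89 in ES15 to ES20, above the other runs, whose highest value was 8.59. It differed by -0.59 ± 0.17 (SE, adjusted p = 0.00606). The size varied with the probe set, since 5 of its 10 were higher by over 1 in ES13 to ES26, up to 3.27. Its brightest probe sets, which weigh on the gene value, differed by only 0.83, 0.10 and 0.15.

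Osbpl5, an oxysterol-binding protein gene, also passed, by -0.71 ± 0.17 (SE, adjusted p = 0.00131). Slc22a18, a transporter gene, Ascl2, a transcription factor gene of the trophoblast, and Cd81, a tetraspanin gene, did not pass, with differences of 0.10 ± 0.12, -0.06 ± 0.18 and 0.03 ± 0.15 (adjusted p = 0.554, 0.812 and 0.899). Of these, Cd81 was at 11.41 to 12.37 in ES1 to ES12 and 11.09 to 12.54 in ES13 to ES26, and Ascl2 was lower in ES25 and ES26 (5.97 and 4.83) than in ES21 to ES24 (6.36 to 7.08).

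At the Snrpn cluster, linked in humans to Prader-Willi and Angelman syndromes, Mkrn3, a paternal ubiquitin ligase gene, had the largest tested difference. It was 4.53 to 5.94 in ES1 to ES12, 7.75 to 8.07 in ES13 and ES14, 7.89 to 8.24 in ES15 to ES20, 7.11 to 7.87 in ES21 to ES24, and 5.84 and 7.02 in ES25 and ES26. ES25 alone of the later arrays fell within the range of ES1 to ES12. The difference was -1.76 ± 0.32 (SE, adjusted p = 6.97e-05). Ndn, the paternal gene for the growth suppressor necdin, was 5.32 to 6.02 (median 5.71) in ES1 to ES12, 9.27 and 9.64 in ES13 and ES14, and 10.03 to 10.61 (median 10.29) in ES15 to ES20. It was 8.49, 8.39, 8.29 and 7.82 in ES21 to ES24 and 7.96 and 8.14 in ES25 and ES26, from 3 probe sets and with no test. Its runs did not overlap between ES1 to ES12 and the rest.

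Snrpn itself, for a splicing protein, and Magel2, for a regulator of protein sorting, passed narrowly, by -0.23 ± 0.0895 (SE, adjusted p = 0.0384) and -0.36 ± 0.14 (SE, adjusted p = 0.0466). Each lost its call in most fits without a single array, Snrpn in 17 and Magel2 in 19 of 26, so neither is a firm call. The Snrpn value, from 7 probe sets carrying that symbol alone, was low in all arrays. It was 4.70 to 5.50 in ES1 to ES12 and 5.05 to 5.41 in ES13 to ES26. Any probe sets naming several genes were left out, so this may not be the level of the whole gene. The median gene stood at 7.33. Only 2 of the 7 Snrpn probe sets were higher by over 1 in ES13 to ES26. For Magel2 6 of 9 were, up to 4.69, while bright probe sets of that gene differed by 0.04, 0.35 and 0.33. Peg12, a paternal gene for an inhibitor of a WNT pathway kinase, and Ube3a, the ubiquitin ligase gene that is maternal in neurons, did not pass (differences -0.16 ± 0.11 and -0.20 ± 0.0936, adjusted p = 0.275 and 0.0791). Ube3a passed in some alternative fits, such as that without ES13 and ES14, at -0.25 (adjusted p = 0.0298).

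Among genes outside these clusters, Slc38a4, a paternal amino acid transporter gene active in the placenta, had the largest difference of the set. It was 4.80 to 6.11 (median 5.29) in ES1 to ES12, 12.44 and 12.79 in ES13 and ES14, and 12.47 to 12.70 (median 12.61) in ES15 to ES20. In ES21 to ES24 it was 11.92, 11.98, 12.02 and 11.77, and in ES25 and ES26 12.13 and 12.31. All arrays from ES13 on thus lay between 11.77 and 12.79, although their marker scores differed, and well above any of ES1 to ES12. It averaged 6.46 ± 2.63 (SD, n = 14) in the arrays labelled 129S2/SvPas and 12.31 ± 0.33 (SD, n = 12) in those labelled C57BL/6. The difference was -5.85 ± 0.73 (SE, adjusted p = 5.94e-07), or -6.87 without ES13 and ES14, with all 22 probe sets in that direction by over 1.

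Impact, a paternal regulator of translation under stress, had the same shape at smaller size. It was 9.09 to 9.78 (median 9.46) in ES1 to ES12 and 11.39 to 11.73 in ES13 to ES26, where its spread was narrow. It differed by -1.81 ± 0.23 (SE, adjusted p = 6.67e-07). Plagl1, a paternal zinc finger gene, was 5.38 to 6.40 (median 5.80) in ES1 to ES12, 8.58 and 9.28 in ES13 and ES14, and 10.20, 11.56, 12.06, 12.20, 12.22 and 12.26 in ES15 to ES20. It was 9.03, 8.92, 8.95 and 9.34 in ES21 to ES24 and 9.19 and 9.28 in ES25 and ES26. ES16 to ES20 stood well above all others, and the difference was -4.15 ± 0.49 (SE, adjusted p = 3.39e-07).

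Zdbf2, a paternal gene with a role in feeding and growth, was 5.00 to 6.42 (median 5.73) in ES1 to ES12, 10.21 and 10.24 in ES13 and ES14, and 9.21 to 9.92 (median 9.72) in ES15 to ES20. It was 9.51, 9.54, 10.14 and 10.74 in ES21 to ES24 and 5.99 and 6.50 in ES25 and ES26. ES25 lay inside the range of ES1 to ES12 and ES26 just above it, so these arrays were more than 2 log2 units below all other arrays labelled C57BL/6. The difference was -2.76 ± 0.58 (SE, adjusted p = 0.000354). Nnat, a paternal gene for a small membrane protein of neurons, also fell near ES1 to ES12 (6.35 to 6.82) in ES25 and ES26 (6.96 and 6.85). It was 8.06 and 8.38 in ES13 and ES14, 9.29 to 10.53 in ES15 to ES20 and 8.30 to 8.74 in ES21 to ES24, and it differed by -2.25 ± 0.36 (SE, adjusted p = 1.47e-05). Blcap, the gene in which Nnat lies, differed by 0.26 ± 0.11 and did not pass (adjusted p = 0.0551). It did pass in some alternative fits, such as that without ES13 and ES14 (adjusted p = 0.0181).

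H13, for a signal peptide peptidase, was the gene counted above as higher in ES1 to ES12 than in ES13 to ES26. It was 11.22 to 11.86 (median 11.66) in ES1 to ES12 and 9.36 to 10.01 in ES13 to ES26, and differed by 1.62 ± 0.19 (SE, adjusted p = 3.75e-07). Of its 30 probe sets 17 were lower by over 1 in ES13 to ES26. Grb10, an adaptor that restrains insulin and IGF signalling, varied widely within ES1 to ES12 and was lower in ES25 and ES26 than in ES21 to ES24. It was 6.34 to 8.61 in ES1 to ES12, 7.82 to 8.47 in ES21 to ES24 and 6.33 and 6.29 in ES25 and ES26, and did not pass (-0.17 ± 0.27, adjusted p = 0.636). Gnas, the stimulatory G protein locus with several imprinted promoters, and Commd1, a copper and NF-kappaB regulator gene, did not pass (-0.13 ± 0.14 and 0.10 ± 0.0889, adjusted p = 0.478 and 0.395). Inpp5f, an inositol phosphatase gene with an imprinted short form, and Nap1l5, a histone chaperone family gene, were lower by -0.63 ± 0.19 and -0.49 ± 0.13 (adjusted p = 0.00801 and 0.00249).

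Probe sets of a gene can read different promoters or ends, so each was compared with its own gene. Of 349 probe sets of the imprinted genes, 15 departed from their gene by more than 1 log2 unit between strain labels (limma treat, adjusted p under 0.05), against 0.292% of the 117307 probe sets tested over all genes. They lay in Mest (7), Plagl1 (4), Peg3 (2), Meg3 (1) and Slc38a4 (1). These genes had large differences themselves, from -4.15 for Plagl1 to -5.85 for Slc38a4, while the share over all genes covers differences of any size. In Plagl1 a probe set read 8.98 to 9.59 in ES1 to ES12, 9.07 to 9.47 in ES21 to ES24 and 9.84 to 11.10 in ES15 to ES20, while another of the same gene went from 2.60 to 4.29 to 9.54 to 9.88. In Mest a probe set read 7.76 to 8.45 in ES1 to ES12 and 12.26 to 12.80 in ES15 to ES20, and another 2.18 to 3.60 and 12.17 to 12.55. The Mest probe sets thus lay far apart in ES1 to ES12 and close together in ES15 to ES20. In these genes the size of the difference varied with the probe set read. Whether unequal background of the probe sets or different transcript parts gave these departures was not tested. Without ES13 and ES14 the count was 47 of 349 (1.33% of all probe sets), and without ES1 to ES12 it was 0.

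**Figure D4:**
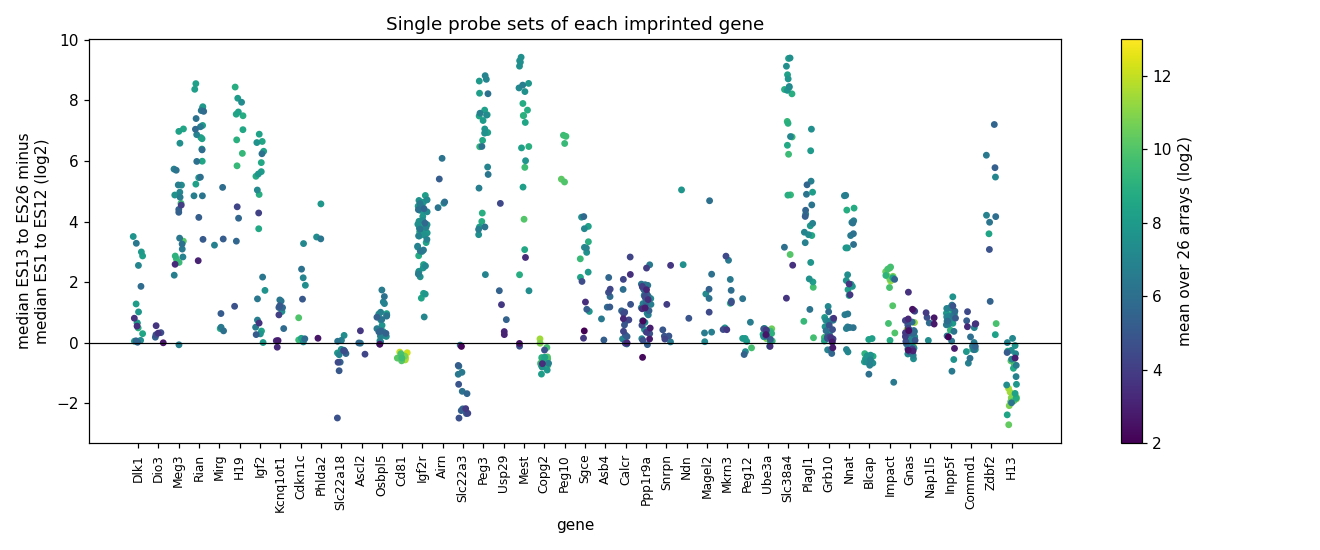
Median over ES13 to ES26 minus median over ES1 to ES12 (log2, vertical axis) for each probe set of the imprinted genes (points, spread sideways within a gene), coloured by the mean over 26 arrays. All 22 probe sets of Slc38a4, all 27 of Peg3 and all 25 of Rian lie above 1, whereas those of Snrpn, Gnas and Ube3a lie mostly near 0 and 17 of 30 of H13 lie below -1.

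Genes that set or keep imprints were also listed. Of 27 tested, 7 were lower and 3 higher, with a median difference of -0.10, against the 22.1% and 21.1% of all genes given above. Zfp57, whose protein binds the motif shown in the promoters, differed by -2.77 ± 0.41, with 5.94 to 7.56 in ES1 to ES12, 11.31 to 11.42 in ES21 to ES24 and 9.75 to 9.97 in ES25 and ES26. Tet1, an enzyme that oxidises methylated DNA, differed by -2.66 ± 0.52 and was 5.00 to 5.97, 10.07 to 11.23 and 6.58 to 7.23 in the same runs. Dppa3, whose protein shields the maternal genome from demethylation, differed by -1.80 ± 0.36, and the DNA methyltransferase gene Dnmt3b by -1.32 ± 0.51.

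Of 19 tested genes of the IGF pathway, on which several of the imprinted genes act, 12 were lower and 5 higher, with a median difference of -1.30, against 22.1% lower and 21.1% higher among all genes. Igf2bp1 and Igf2bp2, whose proteins bind Igf2 and H19 RNA among others, differed by -4.79 ± 0.69 and -2.95 ± 0.33, Irs1, an insulin receptor substrate gene, by -3.03 ± 0.37, and Igfbp5, for an IGF-binding protein, by -2.80 ± 0.77. Igfbp5 was 10.51 to 12.30 in ES15 to ES20, the run with the highest Igf2, and 5.92 to 7.05 in ES21 to ES24, with no overlap. Igf2bp1 was 11.94 to 12.06 in ES13 and ES14 and 11.13 to 12.04 in ES21 to ES24, against 4.81 to 5.64 in ES1 to ES12.

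Of 36 genes around the clusters that are not listed as imprinted, 8 were lower and 10 higher, with a median of 0.04, which is near the 22.1% and 21.1% of all genes. The largest were Col1a2, a fibrillar collagen gene near Peg10 (-4.03 ± 0.36), Adam23, near Zdbf2 (-2.55 ± 0.44), Tnfrsf23, near the Kcnq1 cluster and itself reported as imprinted in placenta (2.13 ± 0.54), and Tubb1, a platelet tubulin gene near Gnas (-2.09 ± 0.65). Adam23 had, like Zdbf2, lower values in ES25 and ES26 than in ES21 to ES24, with 4.41 to 5.26 in ES1 to ES12, 8.99 to 9.85 in ES21 to ES24 and 5.74 to 5.94 in ES25 and ES26. Of 31 other genes reported as imprinted, many of them in placenta alone, 8 were lower and 8 higher, with a median of 0.01, again near those shares. The largest differences were in Gatm, of creatine synthesis (3.01 ± 0.45), Gab1, a signalling adaptor gene (-2.91 ± 0.30), Ddc, for an enzyme that makes dopamine and serotonin (-2.78 ± 0.31), and Dcn, a matrix proteoglycan gene (-2.41 ± 0.62).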

How the data were processed

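The deposited table holds log2 RMA values, which per the labels the authors made with Affymetrix Expression Console at its extended exon level. Its version and the genome build are not given in the sources used here, and the log base of 2 was taken from RMA convention and the range (0.831 to 15.6). Per the labels' protocols, RNA went through DNase treatment and 2 rounds of amplification, which can weight transcript parts unequally. The table had 631748 probe sets by 26 arrays, with array medians from 5.32 to 5.51 and 0 pairs of identical arrays. The number of arrays limits the precision.

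Of the probe sets, 306069 (48.4%) had a single gene symbol in the platform annotation, 6067 had several and 319612 had none. Of 21757 symbols 17747 were current in RefSeq (GRCm38.p6) and 3725 were updated through a unique synonym. A gene value was the median of the brighter 50% of its probe sets by mean over all arrays, for the 18341 genes with at least 4. Strain labels were compared with limma 3.58.1 in R 4.3.3 (lmFit, eBayes with trend, Benjamini-Hochberg over all genes, threshold 0.05, two-sided), and probe set departures from their gene with treat at 1 log2 unit, over probe sets and genes above the median gene value. Title runs were not tested. The test code was checked on data with known answers before use.

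All 46 listed genes, and of each companion list the 4 tested genes with the largest difference past the threshold, are named. The members and lists were chosen with earlier results of these data known. Alternatives changed the gene summary, normalization, trend, array weights, filters and arrays used. Detection calls and DNA methylation were not analysed here.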

Additional observations from a re-analysis of the deposited data

How the results depend on the processing

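No paired analysis was possible because the labels give the strain groups no shared replicate numbers. The count of imprinted genes lower between strain labels, 29, was 26 to 31 under other summaries, normalizations, trend and array weights, 22 with at least 8 probe sets (34 genes tested), 30 without ES13 and ES14, 19 without the dimmer 50% of genes (27 tested) and 0 without ES1 to ES12. The count higher, 3, was 5 with the median over all probe sets, 0 without ES1 to ES12, and 3 or 4 elsewhere. Leaving out each array in turn gave 27 to 30 lower and 3 to 4 higher, and 39 of 43 genes kept their call throughout. The others were Magel2 (19 of 26 fits changed its call), Snrpn (17), Blcap (5) and Ube3a (3). Probe sets departing from their gene, 15, numbered 20 against the mean of all probe sets, 159 with no minimum difference, 47 without ES13 and ES14 and 0 without ES1 to ES12. Centring arrays moved the median of all genes by 0.13 and raised the higher calls from 48.9% to 66.0% of all calls, and array weights moved the median of the imprinted genes from -0.80 to -1.42. With array weights Asb4 passed (-1.42, adjusted p = 0.0101) and Usp29 moved from -1.13 to -1.69. Magel2 (adjusted p = 0.237 and 0.324) and Snrpn (0.424 and 0.122) lost their calls after centring and quantile normalization, and Snrpn also with the median over all probe sets (0.338).

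Among called genes, signs turned only without ES1 to ES12, where 20 did so and the arrays labelled 129S2/SvPas were ES13 and ES14 alone. The differences there were Rian 0.36, H19 1.76, Igf2 1.15, Kcnq1ot1 1.03, Phlda2 1.38, Airn 1.31, Slc22a3 -0.0645, Peg3 1.28, Usp29 0.86, Mest 1.55, Copg2 -0.43, Peg10 0.71, Calcr 0.22, Snrpn 0.17, Magel2 0.49, Mkrn3 0.37, Slc38a4 0.31, Impact 0.0657, Inpp5f 0.65 and Zdbf2 1.04. None of these passed (limma), and the fit rests on fewer samples. Uncalled genes turned as well, namely Slc22a18, Cd81, Asb4, Peg12, Ube3a and Blcap in that fit and Ascl2, Cd81, Peg12, Gnas or Commd1 in at least 1 other alternative, Ascl2 and Cd81 also without single arrays.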
